A study of Mus musculus with 11 samples.

Results

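The 10 genes described here, Slc6a13, Slc22a6, Slc47a1, Dcn, Igfbp2, Ptgds, Aldh1a2, Foxc1, Bnc2 and Ranbp3l, are known as genes of leptomeningeal fibroblasts. They were taken by symbol from the deposited gene list of a single-nucleus RNA sequencing study of mouse brain, where all 10 were found among 25938 genes. Their unique molecular identifier (UMI) counts, each standing for 1 captured RNA molecule, were read in every nucleus and summed per library and per deposited cell class. The list was drawn up from their known biology, with earlier results of these data in view.

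The leptomeninges are the thin inner coverings of the brain, the pia and the arachnoid, with the cerebrospinal fluid between them. Their fibroblasts lay down collagen and laminin, follow vessels into the brain, secrete proteins and retinoic acid, and carry transporters that move transmitters, drugs and metabolites between fluid and tissue. An outer sheet of arachnoid barrier cells, joined by tight junctions and cadherins, separates that fluid from the dura.

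All mice were labelled as a human TfR (transferrin receptor) knock-in strain, homozygous for the knock-in, and received 4 weekly intravenous doses, with tissue taken 72 h after the last. The control group received ATV:BACE1, a TfR-binding molecule that carries no antisense oligonucleotide (ASO), at 57 mg/kg (n = 3). This dose is from the sample labels, and the design text of the series may also mean 60 mg/kg for this group. The group nonTV:Malat1 received 60 mg/kg of a conjugate of an ASO against Malat1, a nuclear non-coding RNA, on a molecule that does not bind the TfR (n = 3). The group OTV:Malat1 received 60 mg/kg of the same kind of ASO on a TfR-binding molecule (n = 3), and the group Malat1 ASO received the free oligonucleotide at 2.5 mg/kg (n = 2). Replicate 1 of each group was female and 2.33 months old, replicate 4 male and 2.57 months old, and replicate 5 male and 2.33 months old. Replicates 1, 4 and 5 were also batches 1, 3 and 4 in the deposited annotation, so replicate number and batch cannot be told apart. Between replicate 1 and the others, sex and batch cannot be told apart either. The labels give the region as posterior brain and the deposited annotation gives cortex, with the strain as C57BL/6J.

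The 11 libraries held 110304 nuclei, 7546 to 13840 per library, with 33235994 to 43972886 UMIs each. In the deposited class named Leptomeningeal cells there were 1861 nuclei, 1.69% of all, or 114 to 258 per library with 111984 to 465754 UMIs. Of these, 82 nuclei (4.41%) were called doublets by the authors, and no cell barcode was shared between libraries within the class, against 1495 of 108788 barcodes over all nuclei. Malat1, the targeted RNA, took 7.21% ± 0.595 of the UMIs of leptomeningeal nuclei in OTV:Malat1 (SD, n = 3) and 8.93% ± 0.476 in ATV:BACE1 (SD, n = 3), with no overlap between the libraries of these groups. A library stands apart for the genes below. OTV:Malat1 replicate 5 had the fewest leptomeningeal nuclei (114) and the lowest median depth in them (825 UMIs), and values without it are given below for Slc22a6, Slc47a1, Igfbp2, Bnc2 and the share of nuclei in the class. Summed over the class, markers of arachnoid fibroblasts reached 2178 CPM (counts of a gene per 1000000 UMIs), of pial and perivascular fibroblasts 1065, of astrocytes 1991, of neurons 1863, of choroid plexus epithelium 1363 and of oligodendrocytes 1171. Most of the arachnoid fibroblast sum was Slc7a11, 1 of its 4 markers, with a mean over libraries of 1929.9 CPM. The 3 markers of perivascular macrophages summed to 9.96 CPM, with 2 UMIs of Cd163.

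For reference, the genes lie on 10 different chromosomes of the mouse genome (GRCm38, GENCODE M21), so none neighbours another. Slc6a13 is at chr6:121300227-121337733 on the plus strand and Slc22a6 at chr19:8618039-8628299 on the plus strand. Slc47a1 is at chr11:61343401-61378345 on the minus strand, Dcn at chr10:97479609-97518143 on the plus strand, Igfbp2 at chr1:72824503-72852474 on the plus strand and Ptgds at chr2:25466709-25470046 on the minus strand. Aldh1a2 is at chr9:71215789-71296243 on the plus strand, Foxc1 at chr13:31806633-31812476 on the plus strand, Bnc2 at chr4:84275095-84675275 on the minus strand and Ranbp3l at chr15:8967949-9067335 on the plus strand. The gene bodies run from 3.3 kb for Ptgds to 400.2 kb for Bnc2, and longer genes offer more unspliced nuclear RNA to count, so levels are compared here between cell classes and groups for 1 gene at a time and not between genes.

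Promoter sequence was available from RefSeq (GRCm38.p6) for 8 of the 10 genes, as 11 windows of the 250 bases before an annotated start. A window outside exons is printed, 5′ to 3′ on the gene's strand, for each of the 5 genes with the largest shares of their UMIs in the leptomeningeal class, and capitals mark a match to the nuclear receptor element AGGTCA on either strand. The Slc6a13 window shown is at chr6:121303389-121303638 (plus strand), an alternative start inside the gene and in no exon, and it was chosen because it holds the match (another Slc6a13 window outside exons, without a match, is not printed). The Slc22a6 window is at chr19:8617746-8617995 (plus strand), the Aldh1a2 window at chr9:71215539-71215788 (plus strand), and the Ranbp3l window at chr15:8967699-8967948 (plus strand), none of them in a gene. The Bnc2 window is at chr4:84610198-84610447 (minus strand), inside the gene and in no exon. On this strand the gene begins at chr4:84675275, so the window is not at its outermost start.
Slc6a13: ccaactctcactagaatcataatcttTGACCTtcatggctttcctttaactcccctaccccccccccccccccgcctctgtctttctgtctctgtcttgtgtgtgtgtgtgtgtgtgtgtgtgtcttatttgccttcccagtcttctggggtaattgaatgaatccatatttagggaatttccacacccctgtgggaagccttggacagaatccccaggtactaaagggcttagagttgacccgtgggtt
Slc22a6: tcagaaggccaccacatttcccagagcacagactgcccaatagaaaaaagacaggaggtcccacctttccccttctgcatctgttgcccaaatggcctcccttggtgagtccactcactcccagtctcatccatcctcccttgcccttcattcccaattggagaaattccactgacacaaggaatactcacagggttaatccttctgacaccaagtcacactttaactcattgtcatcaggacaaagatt
Aldh1a2: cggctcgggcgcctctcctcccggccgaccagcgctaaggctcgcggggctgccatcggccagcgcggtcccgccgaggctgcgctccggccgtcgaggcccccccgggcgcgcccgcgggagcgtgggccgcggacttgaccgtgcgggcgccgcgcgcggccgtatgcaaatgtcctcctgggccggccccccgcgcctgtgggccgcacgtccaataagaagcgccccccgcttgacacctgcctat
Ranbp3l: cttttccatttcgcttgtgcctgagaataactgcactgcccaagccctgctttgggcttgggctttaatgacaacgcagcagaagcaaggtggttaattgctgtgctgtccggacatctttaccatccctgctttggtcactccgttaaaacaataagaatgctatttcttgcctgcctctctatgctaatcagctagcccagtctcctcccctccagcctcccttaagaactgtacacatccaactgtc
Bnc2: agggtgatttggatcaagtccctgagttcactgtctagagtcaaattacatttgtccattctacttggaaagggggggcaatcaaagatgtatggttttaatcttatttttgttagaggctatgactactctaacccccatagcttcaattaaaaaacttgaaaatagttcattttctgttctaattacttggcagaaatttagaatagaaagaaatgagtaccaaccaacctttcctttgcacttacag
The match in Slc6a13 reads TGACCT on the printed strand, starting at base 27 of the window, and it was the 1 match among the 11 windows. The same element was in 14.0% of 32851 mouse promoter windows of this length. The forkhead element GTAAACA, sought on both strands, was in 0 of the 11 windows and in 3.17% of all windows, and TATAAA was in 0 of the 11 and in 12.4% of all. These counts describe the letters of these windows only. Base composition differed between them, from 35.6% G and C in the Bnc2 window to 77.6% in the Aldh1a2 window, around a median of 52.4% over all windows.

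Across the 10 deposited classes, 9 of the 10 genes had their highest level in leptomeningeal cells among classes with 2 or more libraries, and Foxc1 did not. Levels are CPM of the class in a library, given as mean ± SD over libraries with at least 20 nuclei of that class. The deposited class names were predicted from expression, so the comparison of classes is a description and carries no test.

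Of the transporters, Slc6a13, which takes up GABA and taurine, had the smallest spread relative to its mean of the 10 genes. It was 482 ± 36.7 CPM in leptomeningeal cells (SD, n = 11), from 409 through a median of 490.0 to 529.6. The next class was vascular smooth muscle at 86.8 ± 51.6 CPM (SD, n = 8), and the libraries of these classes did not overlap. Leptomeningeal nuclei, 1.69% of all nuclei, held 60.1% of all Slc6a13 UMIs. Slc22a6, an organic anion transporter best known from the kidney, was at 86.6 ± 24.8 CPM (SD, n = 11), with a lowest library of 53.9, a median of 80.2 and a highest of 134. Its next class, smooth muscle, rested on 4 UMIs at 16.02 CPM and overlapped, and endothelium followed at 4.23 CPM. The leptomeningeal class held 51.2% of the Slc22a6 UMIs. Slc47a1, a proton-coupled exporter of organic cations, was the most uneven transporter, at 174 ± 86.6 CPM (SD, n = 11) with a median of 184 and a highest library of 343. Its lowest library, OTV:Malat1 replicate 5, had 0 UMIs, and 3 UMIs would be 26.8 CPM there. Smooth muscle had 31.5 CPM on 7 UMIs. Astrocytes had 22.4 ± 7.53 CPM of Slc47a1 (SD, n = 11), above that library and below the other 10 leptomeningeal values, and only 23.7% of Slc47a1 UMIs were in the leptomeningeal class.

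Among the secreted proteins, Ptgds, the prostaglandin D synthase that is also an abundant carrier protein of the cerebrospinal fluid, was at 5559.5 ± 1623 CPM (SD, n = 11), from 3404 through a median of 5549 to 8384. UMIs of Ptgds were found in every class, with 1268 ± 220 CPM in smooth muscle (SD, n = 8), 1161 in oligodendrocytes, 687 in astrocytes and 218 ± 61.9 in neurons (SD, n = 11). The leptomeningeal class held 12.5% of Ptgds UMIs, and the part of free RNA in the levels of the other classes was not tested. Dcn, the collagen-binding proteoglycan decorin, was at 192 ± 56.6 CPM (SD, n = 11), ranging from 125 through a median of 181 to 314. Its next class was smooth muscle at 66.8 ± 82.6 CPM (SD, n = 8, 24 UMIs in all), which overlapped, and pericytes had 13.3 CPM. Igfbp2, a secreted binder of insulin-like growth factors, was at 154 ± 26.3 CPM (SD, n = 11), from 98.3 through a median of 149 to 189. The class named glia had 77.5 ± 19.4 CPM of Igfbp2 and its highest library overlapped the lowest leptomeningeal one.

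Aldh1a2, the enzyme that makes retinoic acid from retinaldehyde, had the largest ratio to its next class of the 10 genes. It was at 272 ± 40.1 CPM in leptomeningeal cells (SD, n = 11), from 199 through a median of 285 to 322, and the next class, glia, had 5.61 CPM, which leaves a ratio of 48.5. The class held 64.2% of all Aldh1a2 UMIs, and neurons had 0.872 CPM.

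The regulators were of unlike pattern. Bnc2, a zinc finger transcription factor of connective tissue, was at 852 ± 297 CPM (SD, n = 11), from 286 through a median of 853 to 1275. Astrocytes followed at 59.1 ± 15.6 CPM, so that the leptomeningeal level was 14.4 times theirs, with no overlap. Of the 1262 Bnc2 UMIs of astrocytes, 450 were in 207 nuclei inside the authors' cluster 6, which held most leptomeningeal nuclei, and the level of the other astrocytes was 38.7 CPM. Ranbp3l, which takes part in export of signalling proteins from the nucleus, was at 1599 ± 284 CPM (SD, n = 11), from 1102 through a median of 1661 to 2022, and was 13.1 times the level of astrocytes (122 ± 18.5), again with no overlap. Foxc1, a forkhead transcription factor needed for the meninges to form, was not specific to the class. Pericytes had 94.5 ± 23.9 CPM, endothelium 87.6, leptomeningeal cells 85.5 ± 13.6 (n = 11, from 60.8 through a median of 85.9 to 104) and smooth muscle 53.3. These neighbours in the order overlapped, while glia, at 4.73 CPM, was well below them. Perivascular macrophages reached 20 nuclei in 1 library only and are not ranked here.

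**Figure D1:**
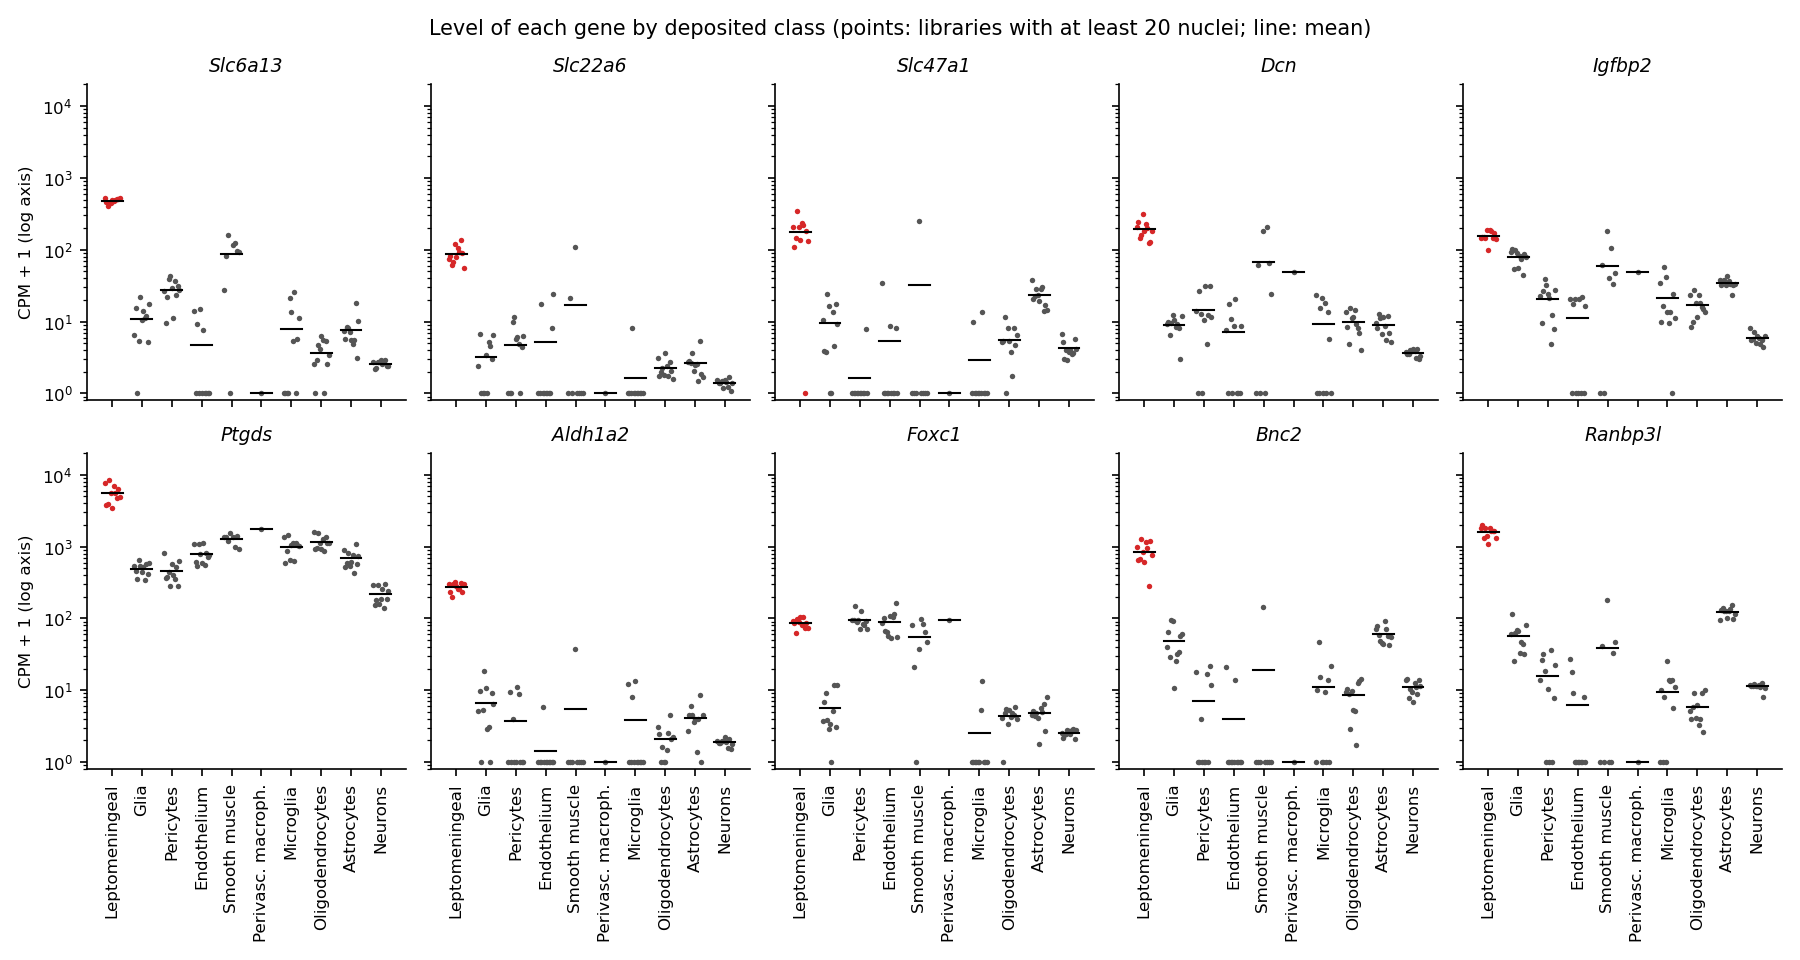
Each panel plots 1 gene, with CPM + 1 on a log axis against the 10 deposited cell classes. Points are libraries with at least 20 nuclei of the class, lines are means, and leptomeningeal cells are in red. The Aldh1a2 and Slc6a13 points of leptomeningeal cells lie above those of all other classes, Ptgds is above 200 CPM on average in every class, and Foxc1 averages 94.5 CPM in pericytes and 85.5 CPM in leptomeningeal cells.

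Single nuclei were compared at equal depth. Each nucleus was thinned to 500 UMIs, since leptomeningeal nuclei had a median of 1188 UMIs and neurons of 3926, and neurons (5000 drawn) served as the class for comparison. A UMI of Ptgds was present in 73.7% of thinned leptomeningeal nuclei and 13.02% of neurons (88.0% and 59.0% without thinning). The thinned share of Ptgds was 22.8% to 47.0% in the other 8 classes, where unthinned shares were 58.1% to 68.5%, and free RNA and expression were not separated there. Ranbp3l was detected in 47.4% against 0.58% (66.0% and 3.50% without thinning), and Slc6a13 in 23.1% against 0.12% (44.0% and 0.598% without thinning). Bnc2 was detected in 20.5% against 0.34% (33.2% and 1.60%), Aldh1a2 in 13.4% against 0.02% (27.9% and 0.340%) and Dcn in 10.7% against 0.12% (21.0% and 1.16%). For these 5 genes the share in leptomeningeal nuclei was far above that in neurons at the same depth. The remaining members were found in few nuclei of either class: Igfbp2 in 8.28% against 0.34% (18.1% and 2.20%), Slc47a1 in 4.84% against 0.26% (8.38% and 0.650%) and Foxc1 in 4.78% against 0.08% (12.1% and 0.702%). Foxc1 was in 3.98% of thinned pericytes and 4.25% of thinned endothelial nuclei, near its leptomeningeal share. Igfbp2 was in 3.87% of thinned glia. Without thinning it was in 21.7% of glia (median 2661 UMIs), above its leptomeningeal share of 18.1%. Slc22a6 was found in 4.41% of leptomeningeal nuclei (11.8% without thinning) and in 0 of 5000 neurons thinned to 500 UMIs. The exact upper bound of 0.074% limits detection at that depth only, since 0.186% of unthinned neurons had a UMI of Slc22a6. Some nuclei named neurons lay in the authors' cluster 6, and they held 1325 of the 3576 Bnc2 UMIs of neurons. Without the 43 such nuclei among the 5000, left out after the values were seen, Bnc2 was found in 0.161% of thinned neurons, Slc47a1 in 0.0807% and Foxc1 in 0.0605%.

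Other genes with a like pattern over the 10 classes were sought among 15258 genes, by Pearson correlation of log2(CPM + 10). These values describe 10 points that share libraries and differ in depth, and carry no test. The point of perivascular macrophages rests on 1 library, with Dcn and Igfbp2 at 47.5 CPM and Foxc1 at 94.9 CPM. Pooled over all libraries that class had 14.4, 21.6 and 14.4 CPM of these genes. The correlations of Dcn, Igfbp2 and Foxc1 lean on that point, and values without it were not computed. Close genes were Tfap2b (0.986) for Slc6a13, Nr1h4 (0.993) and Aox3 (0.992) for Slc22a6, and Nat8f7 (0.989) and Eya2 (0.988) for Slc47a1. For Aldh1a2 they were Il13ra2 (0.998) and Fmod (0.997), for Bnc2 Slc26a7 (0.981) and Eya2 (0.980), and for Ranbp3l Hs3st3a1 (0.985) and Prrx2 (0.985). Foxc1 was closest to Mill2 (0.980) and Tgfb1i1 (0.961), Dcn to March6 (0.986) and Ampd3 (0.938), Igfbp2 to Huwe1 (0.919) and Cpq (0.897), and Ptgds to Apod (0.905) and 4933434E20Rik (0.861). Ptgds and Igfbp2 had the least close neighbours. Among the members themselves Bnc2 and Ranbp3l were closest (0.986), followed by Slc22a6 and Aldh1a2 (0.980) and by Slc47a1 with Ranbp3l (0.974) and with Bnc2 (0.973). Foxc1 and Bnc2 were least alike (0.038).

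Which kinds of nuclei the class holds was asked by clustering its 1861 nuclei on other genes, leaving the 10 genes and Malat1 out of the clustering. Of 10 clusters, 4 with 287 nuclei held markers of astrocytes, oligodendrocytes, neurons or endothelium at over 2 times their level in the class and are called mixed, and 6 with 1574 nuclei did not. Other marker lists took no part in this rule. Nor were the 6 clusters free of such RNA: cluster 1 had astrocyte markers at 1897 and neuron markers at 1849 CPM, against 1991 and 1863 in the class. Since these clusters come from the same nuclei, member levels in them are given as a description, pooled over all nuclei of a cluster.

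Cluster 1 (769 nuclei, 41.3%) was led by Il31ra, with Sidt1, Slc7a11, Aox3 and Cyp26b1 among its leading genes. It is left unnamed, since Slc7a11 alone gave 4069 of the 4267 CPM of its arachnoid fibroblast markers. It carried Slc6a13 at 697 CPM, Slc22a6 at 131, Dcn at 323, Igfbp2 at 314, Aldh1a2 at 379, Ptgds at 7054 and Ranbp3l at 2215, but Bnc2 at 138 and Slc47a1 at 3.63. RNA for transporters of anions and of GABA, for matrix and for retinoic acid synthesis was thus present in this cluster, pooled over its nuclei. Cluster 2 (314 nuclei), led by Rspo2 with Nnat, Cftr and Pkhd1, was richest in Ptgds (12540.1 CPM), Ranbp3l (3620.5 CPM), Slc6a13 (826), Aldh1a2 (487) and Slc22a6 (146), and it had Bnc2 at 1221 CPM with Dcn at only 60.9. Cluster 3 (214 nuclei) was pial and perivascular fibroblast-like, with Lama1 at 2162 and Cemip at 1693 CPM. Its markers of this kind summed to 4166 CPM, below the 5040 of cluster 9, and its arachnoid fibroblast markers to 2540, against 2178 in the class. It had the highest Dcn (518 CPM), with Slc6a13 at 594, Igfbp2 at 203 and Aldh1a2 at 221 CPM, and low Bnc2 (54.0) and Ranbp3l (554).

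Cluster 6 (81 nuclei) was arachnoid barrier-like, with Dpp4 at 1161, the cadherin Cdh1 at 766 and Klf5 at 304 CPM, though Krt18 was at 0. In it Bnc2 was at 2963, Ptgds at 6197 and Ranbp3l at 1333 CPM, while Slc6a13 was at 39.6, Dcn at 66.0, Igfbp2 at 19.8 and Slc22a6 at 19.8 CPM. In the barrier-like nuclei Bnc2 was thus above its class level of 852 CPM and Ptgds near its level of 5559.5, while Ranbp3l (1599 in the class), Slc6a13 and Slc22a6 were below theirs. Cluster 9 (46 nuclei), led by Itga8 and Dach1 and left unnamed, had Cemip at 4762 and Alpl at 1075 CPM and almost no member RNA but Dcn (371 CPM) and Ptgds (741 CPM), with 0 UMIs of Slc6a13 and of Slc22a6. Foxc1 was the even member, from 99.1 to 130 CPM in clusters 1, 2, 3, 4 and 6, with 1 UMI in cluster 9.

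Cluster 4 (150 nuclei, 8.06%) stood out for Slc47a1, which led it at 1575 CPM although it was not used to form it, with Adamtsl3, Slc4a10, Kcnb2 and Slit2. It held 522 of the 566 Slc47a1 UMIs of the class, 92.2% (exact 95% interval 89.7% to 94.3%, covering counting error only), and 48.5% of the Bnc2 UMIs. Bnc2 was at 3902 CPM in it, the highest of any cluster, and Ptgds at 3096, whereas Slc6a13 was at 57.3, Dcn at 57.3, Aldh1a2 at 27.2, Igfbp2 at 21.1 and Slc22a6 at 9.05 CPM. The nuclei carried Cdh1 (453 CPM), Mgp (893 CPM) and Tbx15 (718 CPM), and their median prediction score was 0.608. Their dural fibroblast markers summed to 1331 CPM, against 307 in the whole class, and their arachnoid barrier markers to 806 against 274, and the cluster is left unnamed. Most Slc47a1 RNA of the class thus lay in nuclei with little Slc6a13 or Slc22a6 RNA, while other transporter genes, Slc4a10 (4243 CPM, 96.8 in the rest of the class) and Slc26a7 (528 and 5.64 CPM), were among their leading genes.

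**Figure D2:**
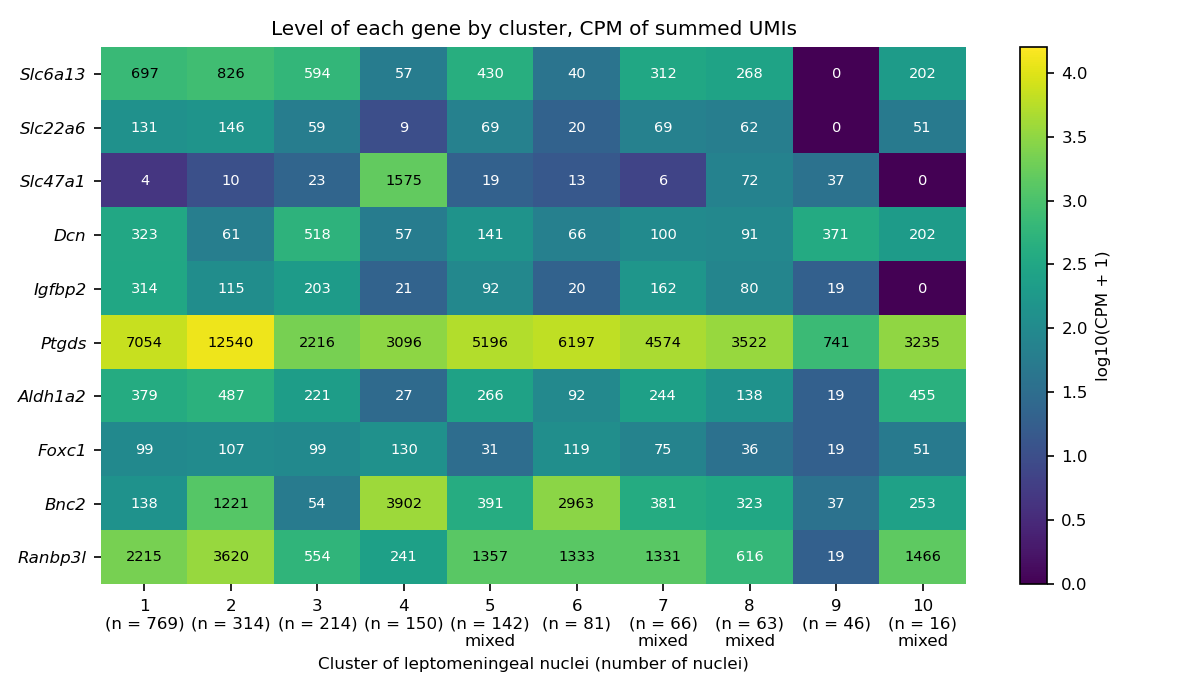
The heat map gives the level of each gene (rows of the plot) in the 10 clusters of leptomeningeal nuclei (columns, with the number of nuclei), coloured by log10(CPM + 1) and with the CPM printed in each cell. Slc47a1 reaches 1575 CPM in cluster 4 and 3.63 in cluster 1, while Slc6a13 runs the other way, with 57.3 and 697 CPM.

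The same split was seen nucleus by nucleus after thinning to 500 UMIs. Slc47a1 and Slc6a13 were found together in 2 nuclei, where 20.2 would be the number if the genes were unrelated, and Slc47a1 and Ranbp3l in 4, against 41.6. Of the 90 nuclei with a UMI of Slc47a1, 63 (70.0%) also had Bnc2, 3.36 times the number for unrelated genes. Within cluster 4, Slc47a1 was found in 52.7% of the 150 nuclei and Bnc2 in 81.3%, and in cluster 1 Slc47a1 was found in 0 of 769 nuclei and Bnc2 in 5.20%. Bnc2 was rarely found with Igfbp2 (7 nuclei, against 33.4) or with Dcn (16, against 40.03). Aldh1a2 and Foxc1 were found together in 17 nuclei against 9.02, and Slc6a13 and Aldh1a2 in 69 against 51.7. Slc6a13 and Dcn were found together in fewer, 30 against 43.1. These counts pool the libraries, depend on the mix of kinds in the class and have no test.

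The nuclei rich in Slc47a1 were not all named leptomeningeal in the deposited annotation. The authors' cluster 6 had 4889 nuclei of several class names. Regrouped without use of the names, it gave a cluster of 465 nuclei rich in Slc47a1 and Bnc2, of which 153 (32.9%) were named leptomeningeal, 229 neurons and 77 astrocytes, with a median prediction score of 0.522. Slc47a1 was at 1561 CPM in those named leptomeningeal, 1822 in those named astrocytes and 1815 in those named neurons, and Bnc2 at 3887, 4053 and 4039.5 CPM. Other members differed between the names: in the same order Ptgds was at 3261, 798 and 877 CPM and Ranbp3l at 262, 0 and 16.1 CPM. Dural fibroblast markers were at 1345, 594 and 903 CPM and arachnoid barrier markers at 821, 471 and 471 CPM. Neuron markers were at 566, 512 and 699.6 CPM and astrocyte markers at 487, 675 and 403 CPM in these 3 sets. The 674 nuclei named neurons inside the authors' cluster 6 held 569 of the 1174 Slc47a1 UMIs of all neurons, at 327 CPM inside against 1.70 outside. For astrocytes, 207 nuclei inside held 179 UMIs, at 929 against 15.6 CPM. Within both deposited classes Slc47a1 was thus far higher inside the authors' cluster 6 than outside it.

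This also bore on the library that stood apart. In OTV:Malat1 replicate 5, cluster 4 held 0 of the 114 leptomeningeal nuclei, which allows a share of up to 3.18% (exact 95% interval), and Slc47a1 had 0 of 111984 UMIs. The other libraries had between 3.76% and 14.3% of their leptomeningeal nuclei in cluster 4. Yet the regrouped cluster held 25 nuclei of that library with Slc47a1 at 1729.6 CPM, of which 21 were named neurons, 4 astrocytes and 0 leptomeningeal. Nuclei rich in Slc47a1 were thus present in this library, under other class names.

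**Figure D3:**
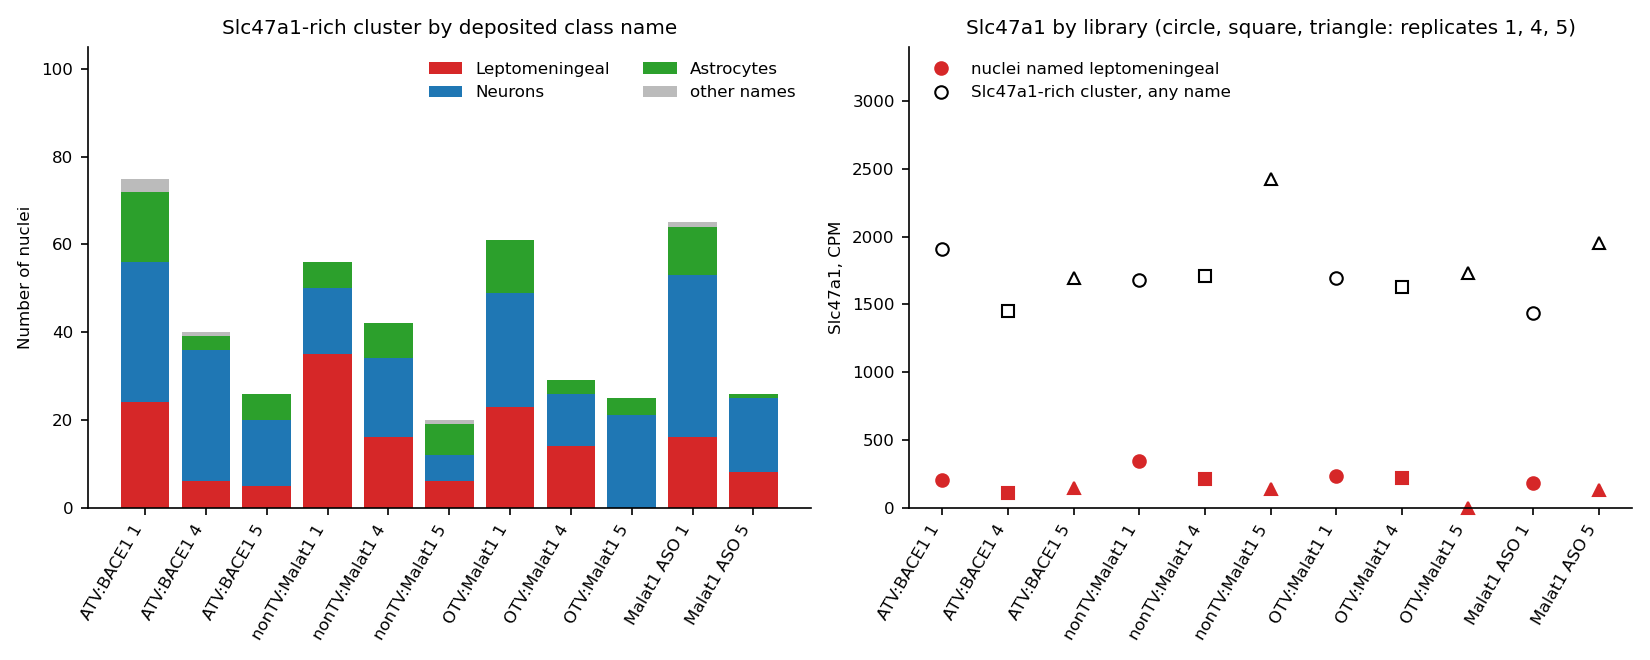
The left panel stacks, for each library, the nuclei of the regrouped cluster rich in Slc47a1 by their deposited class name (leptomeningeal, neurons, astrocytes or other). The right panel plots Slc47a1 in CPM per library for nuclei named leptomeningeal (filled) and for the regrouped cluster under any name (open). OTV:Malat1 replicate 5 has 25 such nuclei, 0 of them named leptomeningeal, and its filled point is at 0 while its open point is at 1729.6 CPM.

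Whether dosing moved these genes was asked in leptomeningeal nuclei summed per library, over 6529 genes that passed a filter on low counts, with edgeR's quasi-likelihood test. All 10 members passed. The labels name no animals, so p-values measure the spread between these libraries. In OTV:Malat1 against ATV:BACE1, 0 of 10 members passed an adjusted p of 0.05, and the background was the same, with 0.0% of all genes called. All 5 contrasts gave 0 of 10 members called and 0.0% of all genes called, and 0 members had an unadjusted p under 0.05, against 171 to 254 of all genes. DESeq2 called 0 genes as well, with 46 to 90 genes at an unadjusted p under 0.05. With the replicate number as a block edgeR called 0 members and 0 to 6 genes per contrast. At an unadjusted p under 0.05 the block gave 1 member, Slc47a1 in nonTV:Malat1 against ATV:BACE1 (0.58, edgeR adjusted p = 0.920), beside 291 to 457 genes per contrast. Log2 changes and SEs of the dosing contrasts below are from the fit without the block unless a block is named. The SEs without the block include the differences between replicate numbers. Libraries of this depth were simulated for OTV:Malat1 against ATV:BACE1, with 6642 genes tested. There edgeR recovered 30.6% of 98 genes changed 2-fold and 90.9% of 99 changed 4-fold. Among changed genes with a mean of at least 25 UMIs per library it recovered 51.3% of 39 and 100% of 52. The tests thus bear on large changes. With 0 genes called, Malat1, whose share was lower in OTV:Malat1, was not called by edgeR either. The simulated libraries were drawn independently, without the shared deviations of same-numbered libraries, so these rates may differ from those of the data.

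Of the 10 members, Slc22a6 had the largest log2 change in OTV:Malat1 against ATV:BACE1. In leptomeningeal nuclei it was at 74.1, 80.2 and 60.8 CPM in ATV:BACE1 replicates 1, 4 and 5, and at 67.6, 121 and 77.6 CPM in the same replicates of nonTV:Malat1. In OTV:Malat1 it was at 105.2, 90.7 and 134 CPM, and in Malat1 ASO replicates 1 and 5 at 88.2 and 53.9 CPM. All 3 OTV:Malat1 libraries were above all ATV:BACE1 and Malat1 ASO libraries, and they overlapped nonTV:Malat1. The share of all genes whose libraries separate in this way was not counted, so the separation is a description only. The log2 change was 0.54 (SE 0.30) against ATV:BACE1, with an edgeR p of 0.0875 and an adjusted p of 0.999, against Malat1 ASO it was 0.54 (SE 0.34), and against nonTV:Malat1 it was 0.27 (SE 0.29). Without OTV:Malat1 replicate 5, the highest library, these changes were 0.45, 0.44 and 0.18. With a replicate block and all libraries they were 0.52 (SE 0.29), 0.43 (SE 0.33) and 0.28 (SE 0.27). These levels rest on 241 UMIs in all 11 libraries.

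The other transporters had smaller changes in OTV:Malat1 against the control. Slc6a13 was at 463 ± 56.4 CPM in ATV:BACE1, 465 ± 27.6 in nonTV:Malat1 and 491 ± 8.54 in OTV:Malat1 (SD, n = 3), and at 522 ± 11.2 in Malat1 ASO (SD, n = 2). Its log2 change in OTV:Malat1 against ATV:BACE1 was 0.058 (SE 0.20) and -0.099 (SE 0.22) against Malat1 ASO. Both Malat1 ASO libraries (513.8 and 529.6 CPM) were above all libraries of nonTV:Malat1 and OTV:Malat1 and overlapped ATV:BACE1. Here too the share of all genes that separate in this way was not counted. Slc47a1 was at 205, 109 and 144 CPM in ATV:BACE1 replicates 1, 4 and 5, at 343, 209 and 134 in nonTV:Malat1, at 234, 218 and 0 in OTV:Malat1, and at 184 and 132 in Malat1 ASO replicates 1 and 5. All groups overlapped, and in each of them replicate 1 had the highest level of Slc47a1. The log2 change of Slc47a1 in OTV:Malat1 was 0.13 (SE 0.45) against ATV:BACE1 and -0.46 (SE 0.42) against nonTV:Malat1. Without OTV:Malat1 replicate 5 these were 0.51 and -0.079, so that library set much of both values.

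The groups of each secreted protein overlapped. Ptgds was at 5103 ± 2124 CPM in ATV:BACE1, 5799.7 ± 2495 in nonTV:Malat1 and 5741 ± 1179 in OTV:Malat1 (SD, n = 3), and at 5612 ± 1092 in Malat1 ASO (SD, n = 2). Dcn was at 199 ± 51.8, 217 ± 84.4, 185 ± 53.9 and 154 ± 38.8 CPM, and Igfbp2 at 148 ± 2.24, 143 ± 45.4, 170.4 ± 24.0 and 155 ± 18.7 CPM in the same order of groups and with the same numbers of libraries. Igfbp2 was at 145, 149 and 149 CPM in ATV:BACE1 replicates 1, 4 and 5 and at 187, 181 and 143 CPM in OTV:Malat1, where only replicate 5 was not above the control. The log2 changes in OTV:Malat1 against ATV:BACE1 were 0.16 (SE 0.27) for Ptgds, -0.052 (SE 0.29) for Dcn and 0.23 (SE 0.25) for Igfbp2, which was 0.31 without OTV:Malat1 replicate 5. Leaving out 1 library turned the sign of the first 2: Ptgds ran from -0.017 without OTV:Malat1 replicate 1 to 0.54 without ATV:BACE1 replicate 1, and Dcn from -0.26 without OTV:Malat1 replicate 1 to 0.11 without ATV:BACE1 replicate 4. The lowest change of any member in Malat1 ASO was that of Dcn, at -0.40 (SE 0.33) against ATV:BACE1, and with a replicate block it was -0.23 (SE 0.28). For OTV:Malat1 against ATV:BACE1 the block gave 0.19 (SE 0.14) for Ptgds, -0.039 (SE 0.23) for Dcn and 0.21 (SE 0.22) for Igfbp2.

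For Aldh1a2 the group means were 243 ± 51.5 CPM in ATV:BACE1, 301 ± 19.0 in nonTV:Malat1 and 275.5 ± 32.1 in OTV:Malat1 (SD, n = 3), and 267 ± 52.3 in Malat1 ASO (SD, n = 2). Its log2 change was 0.12 (SE 0.22) in OTV:Malat1 and 0.29 (SE 0.21) in nonTV:Malat1 against ATV:BACE1. Foxc1 was at 79.6 ± 16.5, 96.2 ± 7.50, 85.1 ± 17.2 and 79.0 ± 7.64 CPM in the same order, and Ranbp3l at 1714 ± 373, 1438 ± 362, 1718 ± 98.6 and 1489 ± 247 CPM. Cluster 1, where Ranbp3l was at 2215 CPM, held 35.7% to 37.7% of the leptomeningeal nuclei in the nonTV:Malat1 libraries, below the 43.0% to 44.4% of ATV:BACE1 and the 43.0% to 45.6% of OTV:Malat1. In Malat1 ASO cluster 1 held 36.4% and 45.9%. Ranbp3l was higher still in cluster 2, at 3620.5 CPM. Cluster 2 held 13.1% to 15.7% in nonTV:Malat1, overlapping ATV:BACE1 (14.3% to 19.7%) and OTV:Malat1 (13.6% to 21.1%). Cluster 3 held 13.5% to 16.2% in nonTV:Malat1, above OTV:Malat1 (9.09% to 11.4%) and overlapping ATV:BACE1 (7.02% to 14.1%). How many clusters separate groups in this way was not counted, so the separation is a description only. The part of these shares in the members' levels was not tested. Bnc2 was at 767 ± 183, 911 ± 339, 795 ± 452 and 979 ± 324 CPM. The spread of Bnc2 in OTV:Malat1 came with libraries at 1151, 948 and 286 CPM, the lowest being replicate 5, which had no cluster 4 nuclei. Without that library its log2 change against ATV:BACE1 was 0.43, compared with 0.068 (SE 0.34) with it. The Foxc1 libraries of nonTV:Malat1 (88.5 to 103.5 CPM) were above both of Malat1 ASO (73.6 and 84.4 CPM), and the other groups overlapped. This pair of groups was not tested here, and the share of all genes that separate in this way was not counted. For Foxc1 the change in OTV:Malat1 against ATV:BACE1 was 0.064 (SE 0.28) and for Ranbp3l -0.015 (SE 0.22). With a replicate block this change was 0.031 (SE 0.28) for Foxc1, -0.0072 (SE 0.14) for Ranbp3l, 0.011 (SE 0.18) for Bnc2 and 0.076 (SE 0.29) for Slc47a1. It also took either sign with 1 library left out for these 4 genes, Slc6a13 and Aldh1a2, from -0.29 (Bnc2 without OTV:Malat1 replicate 1) to 0.51 (Slc47a1 without OTV:Malat1 replicate 5).

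The members' median log2 change in leptomeningeal cells was 0.093 in OTV:Malat1, 0.21 in nonTV:Malat1 and 0.045 in Malat1 ASO against ATV:BACE1, beside medians of 0.0006, -0.0033 and -0.0053 over all genes tested. These 3 contrasts share the control libraries. OTV:Malat1 gave medians of -0.095 against nonTV:Malat1 and 0.11 against Malat1 ASO.

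**Figure D4:**
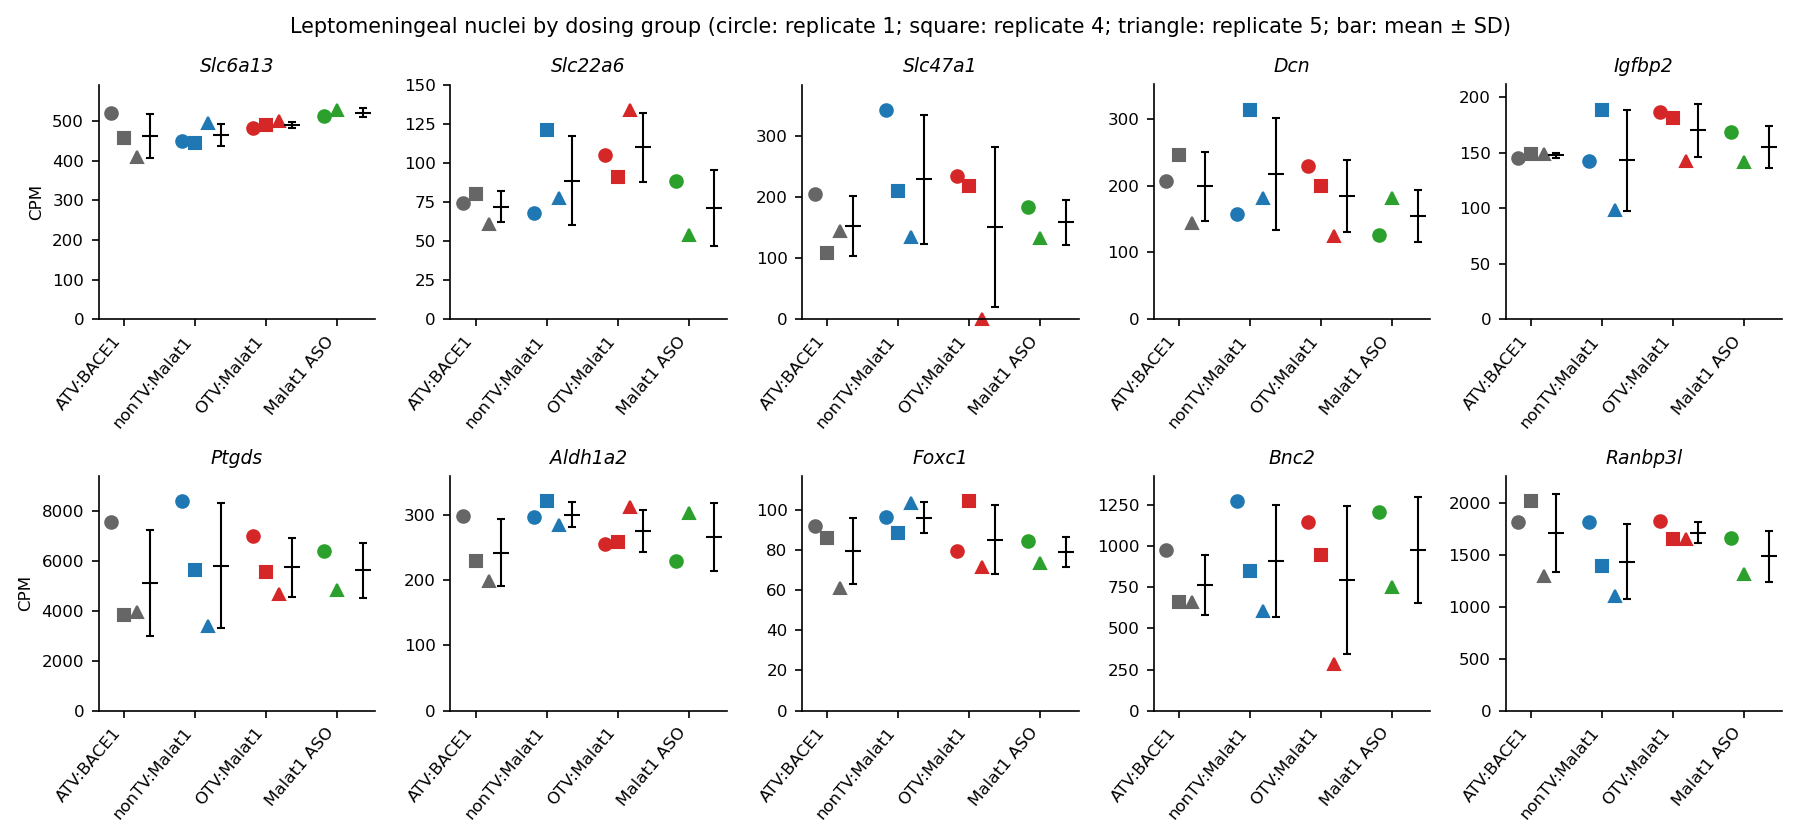
Each panel plots 1 gene in leptomeningeal nuclei, in CPM on a linear axis from 0, by dosing group. Circles, squares and triangles are replicates 1, 4 and 5, and bars give mean ± SD (n = 3, and n = 2 for Malat1 ASO). Slc22a6, the member with the largest log2 change in OTV:Malat1 against ATV:BACE1, is at 90.7 to 134 CPM and 60.8 to 80.2 CPM in these groups. The circles of Ptgds and Bnc2 are high in all 4 groups.

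Sums over all nuclei of a library, where fewer leptomeningeal nuclei and less RNA per nucleus cannot be told apart, gave 0 of 10 members called among 21409 genes (0.0% called in each contrast), with log2 changes from -0.43 to 0.53. At an unadjusted p under 0.05 there were 0 members and 133 to 375 of all genes, and DESeq2 called 0 to 2 genes and no member. Malat1 took 4.66% ± 0.571 of all UMIs in OTV:Malat1 and 7.79% ± 0.515 in ATV:BACE1 (SD, n = 3). Since edgeR called 0 genes, it did not call Malat1, so 0 calls do not show a lack of change. In the other deposited classes 32 or 33 member tests per contrast over 7 or 8 classes gave 0 calls, where 0.0056% of gene tests were called for OTV:Malat1 against the control, 0.0% for the other 2 groups against it, 0.00274% for OTV:Malat1 against nonTV:Malat1 and 0.00411% for OTV:Malat1 against Malat1 ASO. Called genes made up 0.045% of those tested in endothelium for OTV:Malat1 against ATV:BACE1 and 0.0225% for OTV:Malat1 against either other group. They made up 0.0294% in microglia for OTV:Malat1 against ATV:BACE1 and against Malat1 ASO, 0.00809% in oligodendrocytes for OTV:Malat1 against each other group, and 0.0% in the remaining class contrasts. Of those member tests 0, 1 and 3 of 32 had an unadjusted p under 0.05 for OTV:Malat1, nonTV:Malat1 and Malat1 ASO against ATV:BACE1 (0.0%, 3.13% and 9.38%), beside 2.23%, 1.98% and 2.49% of all gene tests. For OTV:Malat1 against nonTV:Malat1 and Malat1 ASO they were 2 and 3 of 33 (6.06% and 9.09%), beside 1.66% and 1.86%. The share of nuclei named leptomeningeal was 1.60% ± 0.338 in ATV:BACE1, 1.96% ± 0.502 in nonTV:Malat1 and 1.67% ± 0.813 in OTV:Malat1 (SD, n = 3), and 1.60% ± 0.192 in Malat1 ASO (SD, n = 2). Exact two-sided permutation tests against the control gave p = 0.3 for nonTV:Malat1, p = 1.0 for OTV:Malat1 and p = 1.0 for Malat1 ASO, where 0.1 is the smallest p that 3 libraries against 3 can give. These tests did not use the pairing: nonTV:Malat1 was above ATV:BACE1 in 3 of 3 replicates, at 2.45% against 1.99%, 1.98% against 1.43% and 1.45% against 1.38% in replicates 1, 4 and 5. The OTV:Malat1 shares were 2.44%, 1.75% and 0.824%, so that without replicate 5 they too were above the control of their replicate.

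Genes of the same pathways were read beside the members in leptomeningeal nuclei. Of 18 genes of fibroblast matrix and its receptors, which join Dcn, 14 were tested and 0 called in each dosing contrast, with a median log2 change of -0.058 in OTV:Malat1 against ATV:BACE1. Among them Cped1 was at 1666 ± 195 CPM and the laminin chains Lama2 and Lama1 at 764 ± 107 and 514 ± 107 CPM (SD, n = 11). Of 14 further meningeal transporters 11 were tested and 0 called (median -0.043), among them Slc7a11, the cystine and glutamate exchanger (1929.9 ± 205 CPM), Slc6a20a (1601 ± 177) and the bicarbonate transporter Slc4a4 (623 ± 92.9). Of 13 transcription factors of meningeal mesenchyme 10 were tested and 0 called (median -0.065), among them Foxp1 (1551 ± 298 CPM), Foxp2 (581 ± 196) and Eya2 (573 ± 170). Not all were highest in leptomeningeal cells: 10 of the 18 matrix genes, 8 of the 14 transporters and 10 of the 13 transcription factors were. Unlike the count for the members, these counts and those of the lists below include perivascular macrophages, which rest on 1 library. That class was the highest other class, at 47.5 CPM, for Col15a1 (40.5 CPM in leptomeningeal cells) and Slc26a2 (46.7 CPM). Slc4a4 was at 2002 CPM in astrocytes and Lama2 at 937 CPM in smooth muscle.

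Around Aldh1a2, 15 genes of retinoic acid handling were in the gene list, 5 passed the filter and 0 were called (median 0.099). The receptor Rarb was at 206 ± 66.5 CPM and the related enzyme Aldh1a1 at 183 ± 56.7 (SD, n = 11). Neurons had Rarb at 261 CPM and astrocytes Aldh1a1 at 247 CPM, and 6 of the 15 genes were highest in leptomeningeal cells. Around Igfbp2, 8 of 10 genes of insulin-like growth factor signalling were tested and 0 called (median 0.070), the receptors Igf1r, Insr and Igf2r among them. Of these 10 genes 1 was highest in leptomeningeal cells, and Igf1r was at 413 CPM there and at 2892 CPM in endothelium. Igfbp6, at 50.2 CPM in leptomeningeal cells, had its highest other level, 94.9 CPM, in the 1 library of perivascular macrophages. Of 10 prostaglandin genes besides Ptgds none passed the filter, with the transporter Slco2a1 at 26.7 CPM, the receptor Ptger4 at 24.8 and Hpgds, the other prostaglandin D synthase, at 21.8. Ptgds was thus the prostaglandin gene with enough leptomeningeal RNA to be tested.

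The largest differences of members in leptomeningeal nuclei ran along the replicate numbers. This comparison of replicate 1 (4 libraries, female, batch 1) with replicates 4 and 5 (7 libraries, male, batches 3 and 4), fitted beside the dosing groups, was added after the values had been seen, so its p-values describe a pattern already noticed. Of 6529 genes 335 were called (5.13%, with 1.91% higher and 3.22% lower in replicate 1), and of the 10 members 3 were called, all higher: Ptgds, Bnc2 and Slc47a1. The 5 genes with the smallest p were Xist and Tsix, higher in replicate 1, and the Y-linked Uty, Eif2s3y and Ddx3y, lower, as the labelled sexes have it. Which of sex and batch the members follow cannot be told apart.

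Ptgds in leptomeningeal nuclei was at 7555, 8384, 7004 and 6384 CPM in the 4 libraries of replicate 1, in the order ATV:BACE1, nonTV:Malat1, OTV:Malat1 and Malat1 ASO. The first 3 groups had 3827, 5611 and 5549 CPM in replicate 4, and replicate 5 gave 3927, 3404, 4670.3 and 4839.9 CPM over the 4 groups. The 4 libraries of replicate 1 lay above the other 7, with means of 7332 ± 849 (SD, n = 4) and 4547 ± 861 (SD, n = 7). The log2 difference was 0.67 (SE 0.10, edgeR adjusted p = 2.17e-05). It stayed between 0.57 and 0.78 and called when each library was left out in turn, and DESeq2 also called it (adjusted p = 0.000491). Called doublets made up 4.83% to 8.53% of leptomeningeal nuclei in replicate 1 and 0.662% to 3.79% in replicates 4 and 5, without overlap, and median depth was 1234 to 1509 UMIs against 825 to 1340.5. Ptgds was called in this comparison also with the doublets left out and with nuclei under 1000 UMIs left out. In other classes the same means were 1378 ± 220 against 1037 ± 169 CPM in oligodendrocytes, 766 ± 145 against 641 ± 211 in astrocytes and 258 ± 50.4 against 195 ± 58.7 in neurons (SD, n = 4 and n = 7), with overlapping libraries.

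Bnc2 was at 978, 1275, 1151 and 1208 CPM in replicate 1 of the same groups. Replicate 4 had 659, 853 and 948 CPM and replicate 5 had 664, 605, 286 and 750.3 CPM. Again the 4 libraries of replicate 1 were above the other 7, at 1153 ± 127 (SD, n = 4) against 681 ± 212 CPM (SD, n = 7). The log2 difference was 0.68 (SE 0.13, edgeR adjusted p = 0.000642), and 0.59 without OTV:Malat1 replicate 5, still called. Among nuclei with a prediction score of at least 0.8 it was 0.50 and lost its call (adjusted p = 0.104). With the mixed clusters left out Bnc2 was still called, but with clusters 4 and 6 left out as well its difference was -0.032, while Ptgds and Ranbp3l were called. Clusters 4 and 6 held 48.5% and 16.8% of the Bnc2 UMIs of the class, and their part in the Bnc2 difference was not tested.

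Slc47a1 was at 241 ± 70.7 CPM in replicate 1 (184 to 343, SD, n = 4) and 135 ± 72.3 in replicates 4 and 5 (0 to 218, SD, n = 7), which overlapped. Its log2 difference was 0.77 (SE 0.21, edgeR adjusted p = 0.0184), but DESeq2 gave 0.83 with an adjusted p of 0.907. It was called in 6 of 11 fits that each left out a library, with a largest adjusted p of 0.231 without nonTV:Malat1 replicate 1, and it also lost its call without OTV:Malat1 replicate 1, ATV:BACE1 replicate 4, nonTV:Malat1 replicate 4 or nonTV:Malat1 replicate 5. The log2 difference ran from 0.61 to 0.96 over these 11 fits. Slc47a1 was not called either without nuclei under 1000 UMIs (adjusted p = 0.211), with a prediction score of at least 0.8, in unmixed clusters (adjusted p = 0.0967) or after regrouping (adjusted p = 0.267). The regrouped cluster rich in Slc47a1, taken under any class name, made up 0.578% to 0.708% of the nuclei of a library in replicate 1 and 0.181% to 0.497% in replicates 4 and 5, with no overlap. Within that cluster the level of Slc47a1 overlapped between replicate 1 (1438 to 1906 CPM) and the others (1453 to 2428 CPM). More such nuclei thus went with the higher Slc47a1 of replicate 1, and their part in the difference was not tested.

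The remaining 7 members did not pass the test in this comparison. Ranbp3l had a log2 difference of 0.25 (SE 0.11, adjusted p = 0.206), and the other 6 lay between -0.15 for Dcn and 0.045 for Igfbp2. Slc6a13, Aldh1a2 and Foxc1 were near 0, at 0.021 (SE 0.12), -0.013 (SE 0.14) and 0.036 (SE 0.20). Among the pathway genes of the same fit, the fibronectin gene Fn1 was higher in replicate 1 by 1.19 and the laminin chain Lama1 lower by -0.42. Of 10 transcription factors tested Eya2 (0.64), Tbx15 (0.56), Foxp2 (0.53) and Foxp1 (0.38) were higher. Igfbp5 was higher by 0.59 and Aldh1a1 was lower by -0.60, in lists with 8 and 5 genes tested. Of 11 transporters tested 0 were called, beside 335 of all 6529 genes. The genes of this fit that rose beside Bnc2 and Slc47a1 included Eya2, which also had a class pattern close to theirs.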

How the data were processed

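RNA from single nuclei of 11 mouse brain libraries was analysed. Per the submitters' processing notes Cell Ranger 5.0.0, Seurat 4 and build mm10 were used. The authors deposited whole-number UMI counts per gene and nucleus, class names, a prediction score (a fraction) and the percent of mitochondrial UMIs. Members and lists were chosen with earlier results of these data known. Named genes were the 10 members, the 2 nearest in class pattern to each, called or else the 3 highest list genes, leading cluster genes, markers and the 5 smallest p of a contrast, apart from some that are not reported here.

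Counts were summed per library and class (at least 20 nuclei) and tested with edgeR 4.0.16 in R 4.3.3 (TMM, filterByExpr, Benjamini-Hochberg, threshold 0.05, all groups in a fit, tested on simulated data). Alternatives were DESeq2 1.42.0 and those in the closing section. Nuclei were scaled to 10000, then clustered on 1000 variable genes, 20 components and 15 neighbours (Leiden, resolution 0.5, leidenalg 0.10.2, Python 3.11.15). Called doublets were kept. Same-numbered libraries deviated together (r 0.60 to 0.89, 15 pairs, within-group deviations over 7617 genes). The batch column groups the libraries in the same way, so the replicate numbers pair them. Depths were 33235994 to 43972886 UMIs, and intervals are exact (Clopper-Pearson, 95%).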

Additional observations from a re-analysis of the deposited data

How the results depend on the processing

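Over 21 alternatives, 209 member values per dosing contrast in leptomeningeal cells gave 0 calls. The alternatives on unmixed or regrouped clusters were chosen after seeing the data. With a replicate block 0 members were called in any contrast, while the calls over all genes against the control were 1 (nonTV:Malat1) and 6 (Malat1 ASO), and 1 for OTV:Malat1 against Malat1 ASO, with 0 in each without the block. The block changed no other call in leptomeningeal cells, and in all nuclei it gave 4 calls for Malat1 ASO against ATV:BACE1 against 0.

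Some changes turned sign, and the cause was not tested. For OTV:Malat1 against ATV:BACE1 these were, with a prediction score of at least 0.8, Slc6a13 (-0.021), in unmixed clusters Slc6a13 (-0.032) and Foxc1 (-0.0070), in unmixed clusters low in barrier markers Slc6a13 (-0.0019) and Foxc1 (-0.094), with DESeq2 Slc47a1 (-0.015), and in fibroblast nuclei regrouped without names Slc47a1 (-0.27), Bnc2 (-0.080) and Ranbp3l (0.045). Without nuclei under 1000 UMIs they were Dcn (0.077), Bnc2 (-0.089) and Ranbp3l (0.044), without doublets Ranbp3l (0.071) and without TMM Ranbp3l (0.0049). Leaving out each library in turn gave -0.027 to 0.14 for Slc6a13, -0.28 to 0.51 for Slc47a1, -0.26 to 0.11 for Dcn, -0.017 to 0.54 for Ptgds, -0.0042 to 0.31 for Aldh1a2, -0.096 to 0.19 for Foxc1, -0.29 to 0.43 for Bnc2 and -0.19 to 0.13 for Ranbp3l. For Bnc2 (0.34 and -0.28 with all libraries) it gave -0.084 to 0.69 in Malat1 ASO against ATV:BACE1 and -0.63 to 0.15 in OTV:Malat1 against Malat1 ASO. Over all members and alternatives 33 of 209 values turned sign in OTV:Malat1, 22 in nonTV:Malat1 and 28 in Malat1 ASO against ATV:BACE1, and 13 and 21 in OTV:Malat1 against nonTV:Malat1 and Malat1 ASO. The largest change under any alternative was that of Slc47a1 in nonTV:Malat1 against ATV:BACE1 with a score of at least 0.8 (1.78, adjusted p 0.906, against 0.59, and 0.025 after regrouping).

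For replicate 1 against replicates 4 and 5, 335 genes were called, and 80 with DESeq2, 92 with a score of at least 0.8, 153 in unmixed clusters, 65 in those low in barrier markers and 130 after regrouping. The count was 427 without doublets, 313 without TMM, 315 without a filter and 265 without nuclei under 1000 UMIs. Members called were 3, and 1 (Ptgds) with a score of at least 0.8. They were Bnc2 and Ptgds with DESeq2, without nuclei under 1000 UMIs, in unmixed clusters and after regrouping, Ptgds and Ranbp3l in the clusters low in barrier markers, and 4 with Ranbp3l added without a filter. Bnc2 turned to -0.032 in the clusters low in barrier markers.

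The Slc6a13 level was 552 CPM as a mean of each nucleus' own share. Cluster 4 held 95.1% of Slc47a1 UMIs without doublets. Shares of nuclei with a UMI were taken over 1165 nuclei thinned to 1000 UMIs (696 shallower ones left out) and over all 1861 unthinned. They were 36.7% and 44.0% for Slc6a13, 8.67% and 11.8% for Slc22a6, 10.04% and 8.38% for Slc47a1, 15.7% and 21.0% for Dcn, and 14.2% and 18.1% for Igfbp2. In the same order they were 84.8% and 88.0% for Ptgds, 23.1% and 27.9% for Aldh1a2, 8.50% and 12.1% for Foxc1, 37.4% and 33.2% for Bnc2, and 60.8% and 66.0% for Ranbp3l.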
